A study of Mus musculus with 4 samples.

Results

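The 7 genes described here take part in the handling of extracellular ATP and adenosine, at the T cell surface or after uptake into the cell. They are the ectonucleotidases Entpd1 (CD39) and Nt5e (CD73), the adenosine receptor Adora2a (A2A), the adenosine-removing enzymes Ada and Adk, and the ATP-gated channels P2rx7 and P2rx4. They were taken by symbol, and each stood on 1 row of the 23700 rows deposited for each library. RNA had been sequenced from helper T cells of the spleens of C57BL/6 mice 43 weeks old. In 2 libraries (KO 1 and KO 2) the genotype is RIPK1-KO, which the series describes as a loss of the kinase RIPK1 in T cells only, and in the other 2 libraries (WT 1 and WT 2) it is wild type. All 4 titles carry the words CD4 and Ctrl, and no agent is named. The sources used here name neither the Cre driver nor the exons removed. They also do not say whether the replicates were different mice, so p-values refer to the spread between libraries, part or all of which may be technical.

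ATP that leaves a cell is a danger signal. CD39 cuts ATP and ADP down to AMP, and CD73 turns AMP into adenosine, which acts through A2A, a receptor coupled to the G protein Gs, to raise cAMP and dampen T cell activation. Adenosine is cleared after uptake, when Adk phosphorylates it back to AMP, or by Ada, which deaminates it to inosine. P2X7 and P2X4 are opened by ATP itself; P2X7 needs far more ATP and can kill the cell under lasting exposure. In mice, CD39 and CD73 together are known from regulatory T cells, CD73 also from follicular helper and memory cells, and P2X7 from regulatory, follicular helper and tissue-resident T cells.

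The unit was FPKM, which scales fragments by transcript length and library size and allows levels of different genes to be compared. The steps of the low values put the depth at about 17300000 and 18800000 fragments in KO 1 and KO 2, and 20900000 and 21700000 in WT 1 and WT 2. Ripk1, the gene targeted, showed no loss: it stood at 10.4 and 9.54 FPKM in KO 1 and KO 2 and at 5.61 and 5.60 FPKM in WT 1 and WT 2. It was called higher in the libraries labelled KO, 1.78-fold (limma adjusted p = 0.0262). A value per gene does not separate exons, so a loss of single exons could not be checked. Directions are therefore tied to the labels and not to a measured loss. As deposited, the median of the 11074 genes tested was 0.38 higher in the libraries labelled KO on the log2(FPKM + 1) scale. Changes are therefore also given relative to that median gene. In the limma fit over all these genes 25.6% were called higher (2832, against 111 called lower) at an adjusted p under 0.05 (Benjamini-Hochberg), and 58.5% had both libraries labelled KO above both labelled WT. Ripk1 itself, with a log2 change of 0.73, lay 0.35 above the median gene. A permutation of 2 against 2 libraries cannot give a two-sided p under 0.333.

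Nt5e, P2rx7, Entpd1 and Adora2a rose in the libraries labelled KO, and P2rx4, Ada and Adk did not pass the test. That is 4 of 7 called higher, beside 25.6% of all genes tested, and 0 of 7 called lower. The median change of the 7 was 0.73 on the log2 scale, against 0.38 for all genes tested. All 7 passed the filter of 1 FPKM in 2 libraries, but Entpd1 passed it only through the libraries labelled KO. It was therefore not tested when either of these was left out. After either rescaling of the libraries (trimmed mean or quantile), 2 of the 7, Nt5e and P2rx7, were called. Of all genes tested, 4.52% were called higher with trimmed means and 1.62% with quantiles. Without KO 2 the median log2 change of the 6 genes still tested was 0.64, against 0.39 for all genes tested. Without WT 1, 0 of the 7 were called, in a fit in which only 9 of all genes tested passed as higher.

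**Figure D1:**
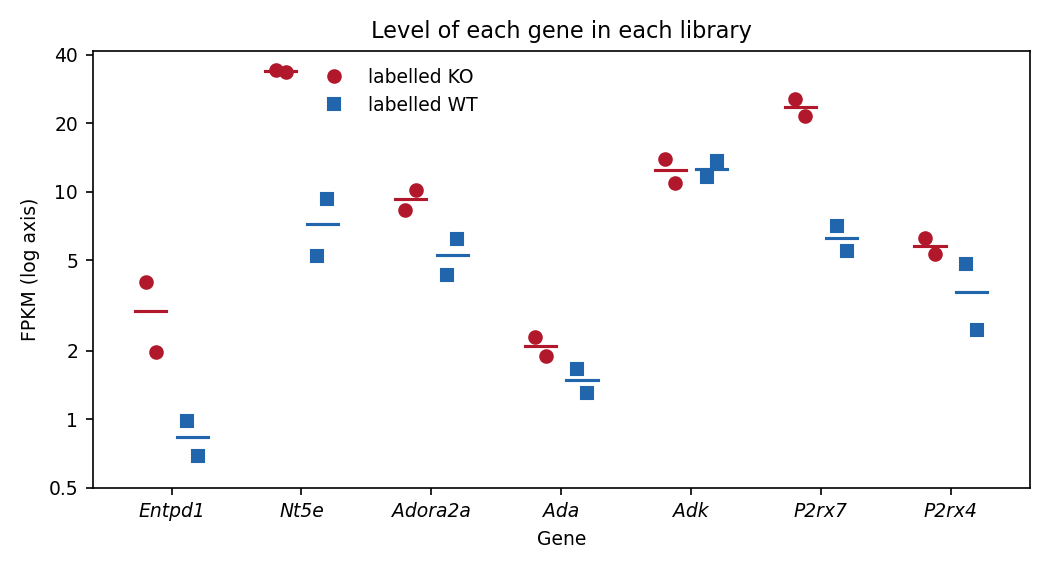
FPKM (log axis) of the 7 genes in the 2 libraries labelled KO (red circles) and the 2 labelled WT (blue squares), with lines at the group means. The groups lie farthest apart for Nt5e, Entpd1 and P2rx7, and they overlap for Adk.

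Nt5e encodes CD73, which makes adenosine from AMP. It stood at 34.2 and 33.7 FPKM in KO 1 and KO 2, and at 5.20 and 9.26 FPKM in WT 1 and WT 2. The libraries labelled KO were nearly equal, WT 2 was higher than WT 1, and the groups did not overlap. The means were 34.0 ± 0.302 FPKM in the libraries labelled KO and 7.23 ± 2.87 FPKM in those labelled WT (SD, n = 2 each). Among single pairs of libraries the fold ran between 3.65 and 6.57. The log2 change was 2.13 ± 0.27 (SE), or 1.75 above the median gene, with a limma adjusted p of 0.0123. By size of change Nt5e stood in place 84 of 11074, and an estimated 412 to 2408 fragments lay behind each value. The call was lost without WT 1 and with no filter on low genes. In the alternatives with all 4 libraries and no block, the limma adjusted p ran between 0.00828 and 0.0858. With the replicate number as a block, a pairing that is not shown, it was 1.11e-07 at the same log2 change of 2.13. Over all 13 alternatives the log2 change stayed between 1.69 and 2.50.

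Entpd1 encodes CD39, the step before CD73. It was at 4.0 and 1.98 FPKM in KO 1 and KO 2 and at 0.980 and 0.689 FPKM in WT 1 and WT 2. KO 1 was the highest library, KO 2 lay between it and WT 1, and the groups did not overlap. The means were 2.99 ± 1.43 FPKM in the libraries labelled KO and 0.834 ± 0.205 FPKM in those labelled WT (SD, n = 2 each), a ratio of 3.59. The log2 change was 1.08 ± 0.28 (SE), which is 0.70 more than the median gene, with a limma adjusted p of 0.0333. This gene was low, with an estimated 60 fragments behind its lowest value and a counting error of 12.9% there. The call was lost after trimmed-mean scaling (limma adjusted p = 0.102), after quantile normalization (0.131), without WT 1 (0.134) and without WT 2 (0.12), and without either library labelled KO the gene fell below the filter. Over the 10 alternatives that gave a value, the log2 change ran between 0.44 and 1.66. With all 4 libraries and no block the limma adjusted p ran between 0.0333 and 0.146. With the replicate number as a block it was 0.000313.

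Adora2a encodes A2A, the adenosine receptor that restrains T cells. It was at 8.32 and 10.2 FPKM in KO 1 and KO 2 and at 4.32 and 6.17 FPKM in WT 1 and WT 2. The groups did not overlap, but the gap between KO 1 and WT 2 was 1.35-fold. The log2 change was 0.73 ± 0.22 (SE), with a limma adjusted p of 0.049, and it lay 0.35 above the median gene. The call was lost in 8 of 13 alternatives. Among them were leaving out WT 1, leaving out KO 2, trimmed-mean scaling (limma adjusted p = 0.267) and quantile normalization (0.367). With all 4 libraries and no block the limma adjusted p ran between 0.0438 and 0.367. With the replicate number as a block it was 0.00723. The other adenosine receptors were too low to be tested. Adora1, a receptor coupled to Gi, was at 0.488 and 0.305 FPKM in KO 1 and KO 2 and at 0.215 and 0.378 FPKM in WT 1 and WT 2. Adora3 reached 0.285 FPKM at most. Adora2b, the low-affinity receptor coupled to Gs, was at 0.0345 and 0.0317 FPKM in KO 1 and KO 2 and was listed at 0 in WT 1 and WT 2. Adora2a was thus the adenosine receptor with by far the most RNA in all 4 libraries.

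The enzymes that remove adenosine did not pass. Adk, adenosine kinase, was at 13.9 and 10.9 FPKM in KO 1 and KO 2 and at 11.6 and 13.6 FPKM in WT 1 and WT 2. The groups overlapped, and the means were 12.4 ± 2.09 FPKM in the libraries labelled KO and 12.6 ± 1.44 FPKM in those labelled WT (SD, n = 2 each). The log2 change was -0.02, with a 95% interval between -0.51 and 0.47 (limma adjusted p = 0.941). Relative to the median gene Adk lay at -0.40. It was -0.44 on the log2 scale under either rescaling (trimmed mean, limma adjusted p = 0.118; quantile, 0.132). Its sign turned only without WT 2 or without KO 2 (0.09 and 0.14), and the change passed in none of these fits. Ada, adenosine deaminase, whose loss causes severe combined immunodeficiency, was at 2.31 and 1.90 FPKM in KO 1 and KO 2 and at 1.67 and 1.30 FPKM in WT 1 and WT 2. The groups of Ada did not overlap, but its change of 0.32 on the log2 scale had a 95% interval between -0.14 and 0.78 (limma adjusted p = 0.239) and lay 0.06 below the median gene, at -0.06. An estimated 42 to 60 fragments lay behind each Ada value, with a counting error of up to 15.4%.

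P2rx7 encodes the channel that opens at high ATP. It stood at 25.6 and 21.5 FPKM in KO 1 and KO 2 and at 7.08 and 5.48 FPKM in WT 1 and WT 2. Within each group the libraries lay close together, and the lowest library labelled KO was 3.03-fold above the highest labelled WT. The means were 23.5 ± 2.89 FPKM in the libraries labelled KO and 6.28 ± 1.13 FPKM in those labelled WT (SD, n = 2 each), a ratio of 3.74. The log2 change was 1.76 ± 0.21 (SE), which is 1.38 more than the median gene and place 173 of 11074 by size, with a limma adjusted p of 0.0111. The call was lost without WT 1 and with no filter. In the alternatives with all 4 libraries and no block, the limma adjusted p ran between 0.00828 and 0.0858. With the replicate number as a block it was 8.04e-07 at the same log2 change of 1.76. Over all 13 alternatives the log2 change ran between 1.34 and 1.91. A form of P2X7 with another first exon is known from mouse T cells, and a value per symbol does not separate the forms.

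P2rx4 encodes a channel that opens at lower ATP. It was at 6.24 and 5.32 FPKM in KO 1 and KO 2 and at 4.81 and 2.47 FPKM in WT 1 and WT 2. WT 2 was the low library, and WT 1 lay just under KO 2. The log2 change was 0.59, with a 95% interval between -0.04 and 1.23 (limma adjusted p = 0.139), 0.21 more than the median gene. In RefSeq (GRCm38.p6) P2rx4 overlaps Camkk2, and the kit is not stated to keep strand, so reads of the 2 genes may not be told apart; Camkk2 was at 2.88 and 2.49 FPKM in KO 1 and KO 2 and at 1.34 and 1.68 FPKM in WT 1 and WT 2.

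**Figure D2:**
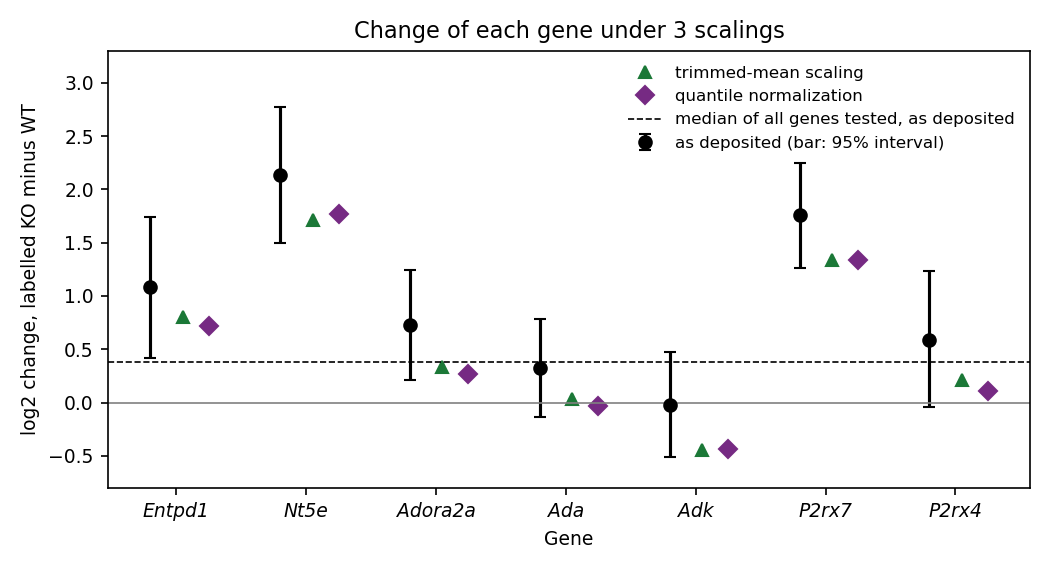
Log2 change of each gene, libraries labelled KO minus libraries labelled WT, as deposited (black, with the 95% interval of the limma fit), scaled by trimmed means (green triangles) or quantile-normalized (purple diamonds); the dashed line is the median of all genes tested as deposited, 0.38. Nt5e and P2rx7 stay above 1.3 under all 3, while Ada and Adk end near or below 0.

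Ratios within a library do not change when all its values are scaled by a common factor. Quantile normalization can change them, and the ratios here are of the values as deposited. The ratio of P2rx7 to P2rx4 was 4.10 and 4.04 in KO 1 and KO 2 and 1.47 and 2.22 in WT 1 and WT 2, higher in both libraries labelled KO. The ratio of Nt5e to Adora2a was 4.11 and 3.31 in the libraries labelled KO and 1.20 and 1.5 in those labelled WT. The ratio of Nt5e to Entpd1, the later enzyme over the earlier one, was 8.53 and 17.0 in KO 1 and KO 2 and 5.31 and 13.4 in WT 1 and WT 2. For that pair the groups overlapped, and replicates differed more than the groups. The ratio of Ada to Adk was 0.166 and 0.174 in the libraries labelled KO and 0.144 and 0.0956 in those labelled WT, so that Adk RNA exceeded Ada RNA everywhere. An exact permutation test of such a ratio over 2 against 2 libraries cannot give a two-sided p under 0.333, and no other test was run on the ratios.

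The order of the levels also differed between the groups. In KO 1 and KO 2 it was Nt5e, P2rx7, Adk, Adora2a, P2rx4, Entpd1 and Ada, from high to low. Of the neighbours in the libraries labelled KO, Adk and Adora2a differed by 13.9 against 8.32 FPKM in KO 1 but by 10.9 against 10.2 FPKM in KO 2, and Entpd1 and Ada by 4.0 against 2.31 FPKM and 1.98 against 1.90 FPKM, so neither pair is apart beyond its spread. In WT 1 and WT 2 Adk was the highest, Ada the sixth and Entpd1 the lowest, while Nt5e, P2rx7, Adora2a and P2rx4 changed places between the 2 libraries. Summed over the 7 genes, FPKM came to 94.5 and 85.5 in KO 1 and KO 2 and to 35.6 and 39.0 in WT 1 and WT 2. Nt5e made up 36.2% and 39.4% of that sum in the libraries labelled KO, against 14.6% and 23.8% in those labelled WT. Adk made up 14.7% and 12.8% in KO 1 and KO 2, against 32.5% and 34.9% in WT 1 and WT 2. P2rx7 held 27.0% and 25.1% in the libraries labelled KO, against 19.9% and 14.1% in those labelled WT. The wild type libraries were thus led by an intracellular enzyme, and those labelled KO by a surface enzyme and a surface channel.

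**Figure D3:**
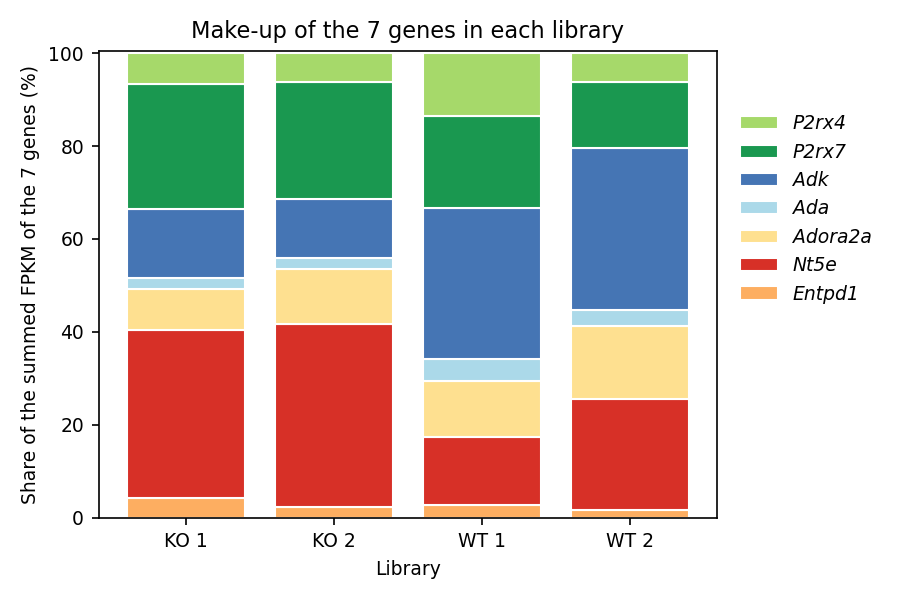
Share (%) of each gene in the summed FPKM of the 7 genes, for each library. Nt5e (red) and P2rx7 (dark green) take the larger part of KO 1 and KO 2, and Adk (blue) is the largest share in WT 1 and WT 2.

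The promoters of Nt5e and P2rx7, called under all 3 scalings, and of Adk, which was called under none, are shown so that they can be compared. RefSeq (GRCm38.p6) gave 9 windows of 300 bases, 250 before to 50 after a start, for 6 of the 7 genes; Adora2a had none. Positions in the deposited tables rest on another build, mm8, and were not used with these. Capitals mark, on either strand, the GC box GGGCGG, the NFAT core GGAAA, the AP-1 site TGANTCA and the short cAMP response core TGACG; the hypoxia core ACGTG and the full cAMP response element TGACGTCA, which contains the short core, had no match in the windows printed.
Nt5e, chr9:88327359-88327658, plus strand: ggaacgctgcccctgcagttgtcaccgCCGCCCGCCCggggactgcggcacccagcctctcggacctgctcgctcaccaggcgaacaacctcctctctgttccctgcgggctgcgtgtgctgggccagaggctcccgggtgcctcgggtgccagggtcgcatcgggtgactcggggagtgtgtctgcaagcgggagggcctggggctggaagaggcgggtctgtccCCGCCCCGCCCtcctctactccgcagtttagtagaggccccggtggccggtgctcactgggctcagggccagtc
P2rx7 first start, chr5:122643677-122643976, plus strand: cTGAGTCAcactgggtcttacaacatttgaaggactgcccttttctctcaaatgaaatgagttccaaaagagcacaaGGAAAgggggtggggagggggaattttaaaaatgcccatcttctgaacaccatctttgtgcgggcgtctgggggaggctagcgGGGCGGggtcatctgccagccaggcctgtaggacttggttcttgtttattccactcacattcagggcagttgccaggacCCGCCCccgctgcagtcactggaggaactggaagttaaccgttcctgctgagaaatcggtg
P2rx7 second start, chr5:122650133-122650432, plus strand: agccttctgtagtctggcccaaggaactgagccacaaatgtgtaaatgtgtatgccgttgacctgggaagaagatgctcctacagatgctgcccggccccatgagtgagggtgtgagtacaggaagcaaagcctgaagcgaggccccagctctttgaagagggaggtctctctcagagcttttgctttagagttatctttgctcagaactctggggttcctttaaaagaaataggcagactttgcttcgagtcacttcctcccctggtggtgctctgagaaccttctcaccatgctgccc
Adk first start, chr14:21052324-21052623, plus strand: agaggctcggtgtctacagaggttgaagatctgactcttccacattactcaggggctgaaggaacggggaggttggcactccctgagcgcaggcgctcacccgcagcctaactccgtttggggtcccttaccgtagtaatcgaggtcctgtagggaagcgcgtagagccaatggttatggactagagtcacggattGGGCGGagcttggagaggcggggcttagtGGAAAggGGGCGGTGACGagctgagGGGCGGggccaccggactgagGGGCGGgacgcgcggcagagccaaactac
The Nt5e window held 4 GC boxes, in 2 overlapping pairs, and no other match. The first P2rx7 window held 2 GC boxes, 1 NFAT core and 1 AP-1 site, and the second held none of the 6 motifs. The first Adk window held 4 GC boxes, 1 NFAT core and 1 short cAMP core. Of 32851 RefSeq windows of this length 35.7% held a GC box, 61.3% an NFAT core, 7.81% an AP-1 site, 20.8% a short cAMP core, 19.6% a hypoxia core and 1.79% the full cAMP element. GC boxes were therefore in promoters of genes that rose and of the gene that did not pass. Which start the cells used is not recorded in values per symbol.

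Genes of enzymes that use NAD at the cell surface were described beside P2rx7, in a list that also held Dpp4. In mouse T cells, ADP-ribosyltransferases of the Art2 family use extracellular NAD to modify P2X7, which then opens without ATP. Of 4 tested genes of the list of NAD ectoenzymes with the ADA anchor, 3 rose (beside 25.6% of all genes tested) and 0 fell, with a median log2 change of 1.16. After trimmed-mean scaling 1 of the 4 was called, beside 4.52% of all genes tested, and after quantile normalization 0, beside 1.62%. Art2b was at 35.9 and 25.7 FPKM in KO 1 and KO 2 and at 10.2 and 13.1 FPKM in WT 1 and WT 2 (limma adjusted p = 0.0164), and it was called after trimmed-mean scaling (0.0479) but not after quantile normalization (0.0597). Art2a-ps, a pseudogene by its symbol, is a close copy of Art2b whose reads the counting may have shared with it. Art2a-ps was at 17.6 and 19.9 FPKM in KO 1 and KO 2 and at 1.62 and 6.60 FPKM in WT 1 and WT 2 (limma adjusted p = 0.0213). After the trimmed-mean and quantile rescalings its limma adjusted p was 0.0561 and 0.0752. Dpp4 (CD26), a peptidase that anchors ADA on human cells, rose 2.24-fold (limma adjusted p = 0.0167; 0.0701 and 0.0986 after the same rescalings). Cd38, which consumes NAD, was at 6.22 and 5.12 FPKM in KO 1 and KO 2 and at 4.18 and 4.22 FPKM in WT 1 and WT 2, without passing (limma adjusted p = 0.172).

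The rest of the pathway was described from 8 lists with 85 genes, of which 52 could be tested. As deposited 20 rose (38.5%, beside 25.6% of all genes tested) and 0 fell, with a median log2 change of 0.51. After trimmed-mean scaling 1 of the 52 (Art2b) was called, beside 4.52% of all genes tested. After quantile normalization 0 of the 52 were called, beside 1.62% of all genes tested. The rises named next are therefore those of the values as deposited. Among other ectonucleotidases 2 of 6 rose. Entpd4, an enzyme of the Golgi, was at 10.6 and 9.73 FPKM in KO 1 and KO 2 and at 4.43 and 4.54 FPKM in WT 1 and WT 2 (limma adjusted p = 0.0142). Enpp1, which cleaves ATP straight to AMP, rose 2.10-fold (limma adjusted p = 0.0267). Of the other P2X and P2Y receptors 11 of 12 were too low to be tested, at 0.697 FPKM or less, and the one tested, P2ry4, was at 2.14 and 1.87 FPKM in KO 1 and KO 2 and at 2.69 and 2.35 FPKM in WT 1 and WT 2 (limma adjusted p = 0.359). P2rx7 and P2rx4 were therefore the P2X channels that reached 1 FPKM in these libraries.

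Nucleosides cross the membrane through 2 transporter families. Slc29a1 (ENT1), the main equilibrative carrier of adenosine, was at 15.3 and 19.1 FPKM in KO 1 and KO 2 and at 4.60 and 8.35 FPKM in WT 1 and WT 2 (limma adjusted p = 0.0209). Slc29a3, its lysosomal relative, rose 2.49-fold (limma adjusted p = 0.0182). The concentrative carrier Slc28a3 was at 14.2 and 15.8 FPKM in KO 1 and KO 2 and at 22.7 and 18.2 FPKM in WT 1 and WT 2, without passing (limma adjusted p = 0.164), and neither did Slc28a2 (0.284). Among ATP release channels the volume-regulated channel subunits Lrrc8c and Lrrc8d rose, 1.80-fold and 1.98-fold (limma adjusted p = 0.0284 and 0.0298). Panx1, the pannexin channel through which T cells release ATP, was at 17.4 and 13.5 FPKM in KO 1 and KO 2 and at 9.48 and 11.7 FPKM in WT 1 and WT 2, without passing (limma adjusted p = 0.12). Lrrc8a was at 3.89 and 4.37 FPKM in KO 1 and KO 2 and at 4.32 and 3.47 FPKM in WT 1 and WT 2 (limma adjusted p = 0.788).

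Of 15 tested enzymes that make or use adenosine and AMP inside the cell, 5 rose (33.3%, beside 25.6% of all genes tested) and 0 fell, with a median of 0.38, that of all genes tested. After either rescaling 0 of the 15 were called, beside 4.52% (trimmed mean) and 1.62% (quantile) of all genes tested. Ahcy, which frees adenosine from S-adenosylhomocysteine, rose 1.90-fold (limma adjusted p = 0.0293), Ak3, a mitochondrial kinase of AMP, 2.15-fold (0.0176) and Ampd2, which deaminates AMP, 2.0-fold (0.0267). Dck, which phosphorylates deoxynucleosides, rose 1.98-fold (limma adjusted p = 0.0208). Below A2A, 17 genes of cAMP signalling were tested. After either rescaling 0 of the 17 were called, beside 4.52% (trimmed mean) and 1.62% (quantile) of all genes tested. As deposited 6 of the 17 rose (35.3%, beside 25.6% of all genes tested) and 0 fell, with a median of 0.62. They were the Gs subunit Gnas, the adenylyl cyclases Adcy3 and Adcy7, the catalytic subunit Prkaca of protein kinase A, the CREB coactivator Crtc2 and Pde7a, which breaks cAMP down. Adcy7 was at 32.0 and 25.0 FPKM in KO 1 and KO 2 and at 13.4 and 14 FPKM in WT 1 and WT 2 (limma adjusted p = 0.0208). Pde7a was at 15.9 and 16.0 FPKM in KO 1 and KO 2 and at 5.87 and 8.77 FPKM in WT 1 and WT 2 (limma adjusted p = 0.0215). Adcy6, Pde3b, Pde4b, Pde4d and Pde8a of the same list did not pass (limma adjusted p between 0.118 and 0.949).

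**Figure D4:**
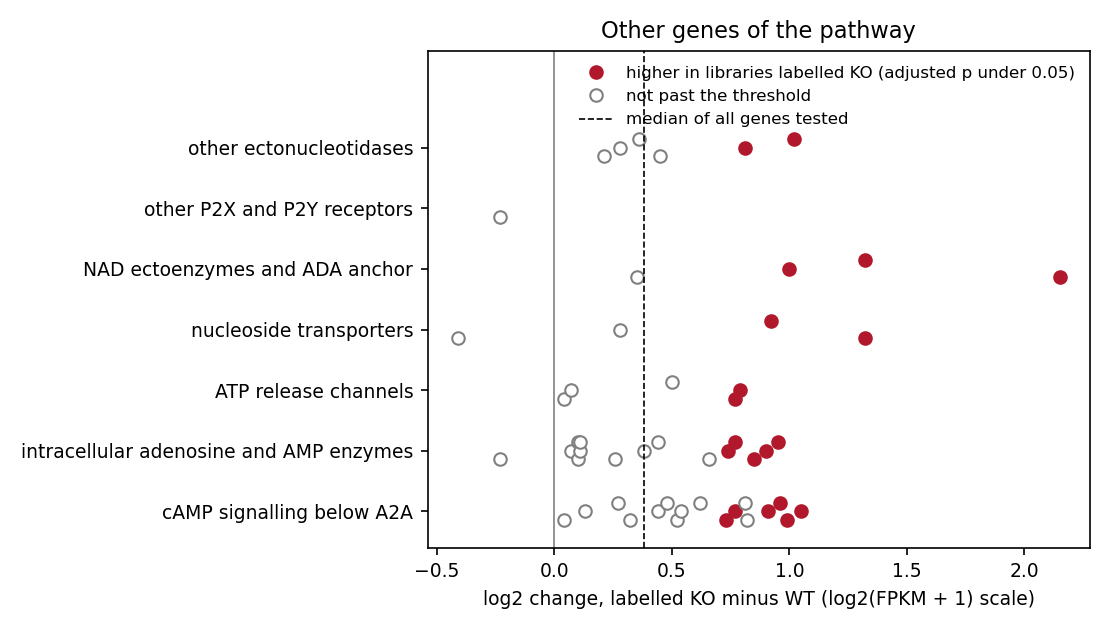
Log2 change, libraries labelled KO minus libraries labelled WT, of the 52 tested genes of 7 pathway lists (the list of other adenosine receptors had 0 tested genes); red points passed the limma test as deposited, open points did not. The red points lie between 0.73 and 2.15, right of the median of all genes tested (dashed, 0.38).

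For each of the 7 genes the genes with the most similar pattern were taken, by Euclidean distance between log2(FPKM + 1) values of the 4 libraries, each gene centred on its own mean, among 6039 genes. Nearest to Nt5e were Cxcr5 (distance 0.163), the homing receptor of follicular helper cells, Fkbp5 (0.186) and Cdc25b (0.193). Cxcr5 was at 19.6 and 16.5 FPKM in KO 1 and KO 2 and at 2.36 and 4.82 FPKM in WT 1 and WT 2. P2rx7 lay nearest to Sorl1 (0.104), Polr2a (0.155) and Grn (0.179), and Entpd1 to Ncoa7 (0.071) and Rab19 (0.094), among others. Adora2a lay nearest to Phf21a (0.010), Brd1 (0.029) and Stk40 (0.032), P2rx4 to Cstf1 (0.145), Pisd-ps3 (0.176) and Gclm (0.177), Ada to Rnf26 (0.028), Yars (0.043) and Abce1 (0.050), and Adk to Exosc9 (0.014), Akirin2 (0.015) and Mrps15 (0.047). Among the 7 genes themselves Ada and P2rx4 were the closest pair (0.460), with Ada and Adk nearly as close (0.470). Nt5e and Adk were the farthest (2.195). The log2(FPKM + 1) scale understates changes of low genes such as Ada and Entpd1, which shortens their distances to genes that changed little. These distances are descriptions over 4 libraries.

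Markers of T cell subsets were also higher in the libraries labelled KO. In bulk RNA more cells of a type and more RNA per cell cannot be told apart. Of 9 regulatory T cell markers 6 rose, beside 25.6% of all genes tested, and 0 fell, 2 of the 9 entering the test only through the libraries labelled KO; their summed level was 250 and 270 FPKM in the libraries labelled KO and 78.9 and 125 FPKM in those labelled WT. Foxp3, the lineage factor, was at 15.0 and 12 FPKM in KO 1 and KO 2 and at 2.26 and 2.56 FPKM in WT 1 and WT 2 (limma adjusted p = 0.0078). Il2ra (CD25), a subunit of the interleukin-2 receptor, was at 27.6 and 27.2 FPKM in KO 1 and KO 2 and at 35.6 and 29.4 FPKM in WT 1 and WT 2, without passing (limma adjusted p = 0.41). The count of 6 became 4 after either rescaling, 3 without KO 1, 4 without KO 2 (7 tested in each) and 0 without WT 1. The ratio of Nt5e to Foxp3 was 2.28 and 2.81 in the libraries labelled KO and 2.30 and 3.61 in those labelled WT, so these groups overlapped. The ratio of P2rx7 to Foxp3 was 1.71 and 1.79 in the libraries labelled KO and 3.13 and 2.14 in those labelled WT, and that of Entpd1 to Foxp3 was 0.267 and 0.165 in the libraries labelled KO and 0.434 and 0.269 in those labelled WT, both lower in those labelled KO. These ratios hold for Foxp3 alone, which was 5.6-fold higher in the libraries labelled KO. Over the 9 markers that fold ran between 0.844 (Il2ra) and 14.6 (Itgae), and no other marker of the list was used as a divisor. All 8 follicular helper markers rose, beside 25.6% of all genes tested, with a sum of 275 and 260 FPKM in the libraries labelled KO and 63.0 and 117 FPKM in those labelled WT. Of these 8, 3 were called after trimmed-mean scaling, 3 after quantile normalization and 0 without WT 1. Between the wild type libraries the sums of both lists were higher in WT 2, as were Nt5e and Adora2a, while P2rx7 and Entpd1 were lower in WT 2 than in WT 1. Beside the counts of both lists after rescaling, 4.52% (trimmed mean) and 1.62% (quantile) of all genes tested were called higher. The part of these subsets in the changes was not tested.

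The counts as deposited in this paragraph stand beside 25.6% of all genes tested called higher. All 9 T cell identity markers were high enough to be tested. Of these Cd4, Cd3e and Cd5 rose (3 of 9) and 0 fell. After either rescaling 1 of the 9 rose, beside 4.52% (trimmed mean) and 1.62% (quantile) of all genes tested. The median log2 change of the 9 was 0.62 as deposited and ran between 0.48 and 0.77 on leaving out 1 library. Cd3d was at 175 and 169 FPKM in KO 1 and KO 2 and at 185 and 238 FPKM in WT 1 and WT 2, without passing (limma adjusted p = 0.395), and was called lower after trimmed-mean scaling (0.0447). Cd3g was at 356 and 332 FPKM in KO 1 and KO 2 and at 262 and 362 FPKM in WT 1 and WT 2, groups that overlapped. Cd4 was at 211 and 185 FPKM in KO 1 and KO 2 and at 86.3 and 87.3 FPKM in WT 1 and WT 2. It rose (limma adjusted p = 0.0173), also after both rescalings (0.048 and 0.0487). Per unit of Cd4, Nt5e was at 0.162 and 0.182 in the libraries labelled KO and at 0.0603 and 0.106 in those labelled WT, and P2rx7 at 0.121 and 0.116 in the libraries labelled KO and at 0.0820 and 0.0628 in those labelled WT. Entpd1 per Cd4 was at 0.0190 and 0.0107 in the libraries labelled KO and at 0.0114 and 0.00789 in those labelled WT, and the groups overlapped, as they did for Adora2a and P2rx4 per Cd4. Ada per Cd4 was lower in the libraries labelled KO, at 0.0110 and 0.0103, against 0.0193 and 0.0149 in those labelled WT, and so was Adk per Cd4, at 0.0660 and 0.0590, against 0.134 and 0.156 in those labelled WT. All values per Cd4 carry the rise of Cd4 itself. Over the 9 identity markers the fold ran between 0.814 (Cd3d) and 2.28 (Cd4), and no other identity marker was used as a divisor. Markers of other cell types lay far below the T cell identity markers, which summed to 1860 and 1690 FPKM in the libraries labelled KO and to 1130 and 1420 FPKM in those labelled WT, but several of these sums exceeded the level of Entpd1. The summed 9 B cell markers were at 22.7 and 22.3 FPKM in the libraries labelled KO and at 24.3 and 20.3 FPKM in those labelled WT, and 1 of 3 tested rose, Cd79b, which was below 1 FPKM in both libraries labelled WT. The 13 macrophage and dendritic cell markers summed to 8.82 and 9.54 FPKM in the libraries labelled KO and to 2.91 and 4.33 FPKM in those labelled WT; 1 of 2 tested, Lyz2, rose, and Vsig4 was at 0 in all 4. The 7 platelet and endothelial markers stayed at 1.86 FPKM or less in sum in every library, and 0 of 1 tested rose. Of plasma cell markers 0 of 1 tested rose. They summed to 8.23 and 11.4 FPKM in the libraries labelled KO and to 5.17 and 6.90 FPKM in those labelled WT. Of neutrophil markers 0 of 4 tested rose. They summed to 21.3 and 50.9 FPKM in the libraries labelled KO and to 4.37 and 44.1 FPKM in those labelled WT. The median log2 change of the neutrophil markers, 0.87 as deposited, ran between -0.49 and 2.26 on leaving out 1 library. Of erythroid markers 3 of 3 tested rose, each tested only through the libraries labelled KO. They summed to 7.96 and 8.38 FPKM in the libraries labelled KO and to 0.773 and 1.84 FPKM in those labelled WT. Of the CD8 T cell and NK cell markers, summed at 13.7 and 14.7 FPKM in the libraries labelled KO and at 15.7 and 15.5 FPKM in those labelled WT, 0 of 2 tested rose and most was Cd8b1, while Cd8a stayed at 0.764 FPKM or less. The part of these cells in the changes was not tested.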

How the data were processed

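Per the labels' protocols, the NEBNext Ultra RNA kit was used on RNA from Direct-zol kits (200 ng). The submitters' processing notes name Bowtie 0.12.2 and mm8; the sources used here do not give the program, annotation and filters behind FPKM. Per the file headers the authors deposited 1 FPKM value per gene symbol and library, unpooled; 23700 rows held 23234 symbols. FPKM is relative, so a few abundant genes can shift all others.

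Rows reaching 1 FPKM in 2 or more libraries (11074) were tested with limma 3.58.1 (R 4.3.3; intensity trend) on log2(FPKM + 1), two-sided, with Benjamini-Hochberg adjustment over all of them and a threshold of 0.05; this scale understates changes of low genes. Folds are ratios of mean FPKM. The fit was tested on simulated data. Depth came from low values, which in part step by whole fragments, so no count test was run. For an assumed fragment length of 200 nt, 69.9% to 72.5% of low values lay within 5% of a whole number. The depth was chosen to make the mean of this share highest, so the share is no check of the depth. Fragments per gene used the longest GENCODE M21 transcript, and counting errors and intervals cover no other error. For 171 list symbols, 1 match used a synonym and 2 found none.

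The 7 genes and the lists were chosen with earlier results of these data known. Named were the 7 genes, up to 4 genes of each pathway list by unadjusted p, up to 3 of each marker list by level, Ripk1, and the 3 nearest patterns of each gene (mean of at least 5 FPKM); Foxp3 and Cd4 as divisors, further genes of the cAMP list, and markers named for being at 0, for their call or for lying lower in the libraries labelled KO were added after the values were seen. Alternatives were each library left out, the replicate number as a block, pseudocounts of 0.1 or 5, no filter, a mean of at least 5 FPKM, trimmed-mean scaling (own implementation, trimming 30% of log ratios and 5% of levels), quantile normalization, no trend and a threshold of 0.1. A few genes are not reported here. Figures were drawn with matplotlib 3.10.9.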

Additional observations from a re-analysis of the deposited data

How the results depend on the processing

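The 4 genes called higher and 0 called lower stayed at 4 with a pseudocount of 5 and a threshold of 0.1; 3 were called with a pseudocount of 0.1 and with no trend, and 0 were called lower in any alternative. The count was 2 after trimmed-mean scaling, 2 after quantile normalization, 2 with a mean of at least 5 FPKM (which left 4 of the 7) and 0 with no filter, and it ran between 0 and 3 on leaving out 1 library. Over all genes, 2832 higher and 111 lower became 501 and 415 (trimmed mean), 179 and 77 (quantile), 3 and 0 with no filter (limma; 4604 and 541 at an unadjusted p under 0.05) and 1562 and 89 with the higher mean; 267 were lower at the threshold of 0.1. On leaving out 1 library they ran between 9 and 2189 higher and between 0 and 123 lower (1611 and 70 without KO 1); without WT 1 the 9 and 0 (limma) compare with 3069 and 340 at an unadjusted p under 0.05. The higher calls were 96.2% of calls as deposited, 54.7% with trimmed means and 69.9% with quantiles, where the median gene stood at 0.01 and -0.02. Of 86 log2 changes of single genes under alternatives, 65 kept their direction and side of the threshold, 17 lost the call and 1 gained it. The 3 that turned sign were all of genes not called: Ada after quantile normalization (-0.035), and Adk without WT 2 and without KO 2, its change running between -0.182 and 0.138 on leaving out 1 library. The cause of these changes was not tested. With the replicate number as a block 5 of the 7 were called, P2rx4 being added (limma adjusted p = 0.0237), and over all genes 3909 were higher and 230 lower; the titles give only a shared number, and same-numbered libraries deviated together weakly (r = 0.108 across genes), so this pairing is not shown. Depth limits Entpd1 and Ada most, with as few as 60 and 42 estimated fragments in a library.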
